A study of Homo sapiens with 10 samples.

Results

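The PYHIN cluster on the long arm of chromosome 1 comprises IFI16, MNDA, AIM2 and PYHIN1, and these 4 genes were taken by symbol, as protein-coding entries, from the 60603 genes that were quantified by mRNA-seq in NB4 cells. NB4 is a cell line derived from an acute promyelocytic leukemia. In the GSE1 knockdown, cells were infected with lentivirus in 2 cycles and RNA was taken 48 h after transduction. The control virus held pLKO.1 puro without an insert (EV), and the other viruses held it with the short-hairpin RNA shA1 or shB2 against GSE1. In the LSD1 inhibition, cells received DMSO or 2 µM of the LSD1 inhibitor MC2580, and RNA was taken after 24 h. Each of the 5 groups had 2 libraries, 10 in all. All knockdown groups, EV included, carry a lentiviral vector, so the effect of transduction itself cannot be told apart from the EV level. EV holds no hairpin, so the effect of expressing a hairpin cannot be told apart from that of GSE1 loss. GSE1 is a subunit of corepressor complexes that also hold LSD1, a histone demethylase encoded by KDM1A, and both experiments ask which genes change when this machinery is reduced or blocked.

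PYHIN proteins pair an N-terminal pyrin domain, which binds other pyrin domains, with a C-terminal HIN domain, which binds DNA. AIM2 recognises double-stranded DNA in the cytosol and recruits the adaptor PYCARD (ASC) and caspase-1 into an inflammasome, which matures IL-1β and IL-18 and cleaves gasdermin D. IFI16 is a largely nuclear DNA sensor that can signal through STING to interferon production. MNDA, the myeloid nuclear differentiation antigen, is a nuclear protein of granulocytes and monocytes, and PYHIN1 (IFIX) is a nuclear protein best known from lymphocytes. The family is known as interferon-inducible, and its genes lie side by side as products of duplication.

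The cluster covered 356 kb of hg38, with coordinates from GENCODE release 44. MNDA (ENSG00000163563.8) lies at chr1:158831351-158849506 on the plus strand and has 7 exons in its canonical transcript. PYHIN1 (ENSG00000163564.14) follows at chr1:158930796-158977059 on the plus strand with 9 exons. IFI16 (ENSG00000163565.18) lies at chr1:158999968-159055155 on the plus strand with 12 exons, 22.9 kb after PYHIN1. AIM2 (ENSG00000163568.15) lies on the minus strand at chr1:159061599-159187843 with 6 exons, and 6.44 kb separate it from the end of IFI16, so that both genes are transcribed toward each other. The library kit does not mark strand, so reads running past the end of IFI16 could not be distinguished by strand from reads of AIM2, and their part in the AIM2 values was not tested. PYDC5, a pyrin-only gene annotated on the opposite strand over the start of IFI16, was not analysed here.

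The sequence upstream of these genes is shown because 2 of these genes were called higher under both hairpins and 2 were not. RefSeq windows on GRCh38.p14 of 300 bases, 250 before and 50 after each annotated start, were found for all 4 genes, with 2 windows for IFI16. The MNDA start is also its GENCODE start. The others lie inside the GENCODE spans, at chr1:158931552 for PYHIN1, chr1:159008991 and chr1:159009907 for IFI16 and chr1:159076766 for AIM2. The GENCODE starts of these other genes were not searched. The stretches of IFI16 (chr1:159009826-159009953, plus strand), PYHIN1 (chr1:158931455-158931578, plus strand) and MNDA (chr1:158831239-158831365, plus strand) are those that align with each other around the start. For AIM2 (chr1:159076917-159076986, minus strand) the stretch holds its repeat with 30 bases on either side. Capitals mark a GAAA repeat of the kind bound by interferon regulatory factors, in MNDA and AIM2 with 2 bases between the units, the spacing of an interferon-stimulated response element, and in IFI16 with 1 base between them.
IFI16: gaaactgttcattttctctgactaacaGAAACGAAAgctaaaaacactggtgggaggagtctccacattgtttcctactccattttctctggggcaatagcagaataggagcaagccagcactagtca
PYHIN1: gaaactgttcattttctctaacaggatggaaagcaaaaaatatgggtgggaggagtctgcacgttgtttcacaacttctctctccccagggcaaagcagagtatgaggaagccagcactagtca
MNDA: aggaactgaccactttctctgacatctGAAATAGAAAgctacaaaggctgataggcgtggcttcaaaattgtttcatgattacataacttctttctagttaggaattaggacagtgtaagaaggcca
AIM2: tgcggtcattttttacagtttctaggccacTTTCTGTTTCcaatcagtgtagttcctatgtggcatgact

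The IFI16 and PYHIN1 stretches were identical at 79.8% of 129 aligned columns, and those of MNDA and IFI16 at 65.1% of 129. In the second IFI16 window the repeat GAAACGAAA began 54 bases before the start, in MNDA the repeat GAAATAGAAA began 85 bases before it, and in AIM2 the repeat lay on the opposite strand, 190 bases before the start. The PYHIN1 window held neither spacing. Both strands were searched, and among all 35116 RefSeq windows 3.57% held GAAA, any 2 bases and GAAA, and 3.12% held the spacing of 1 base. The STAT site TTCNNNGAA, found in 7.66% of all windows, and AAATCA, found in 13.2%, occurred in none of the 5 windows of the cluster. AAATCA is longer than AATC, the core bound by GFI1. AATC alone was not counted. The AIM2 stretch above holds it, and the MNDA stretch holds its reverse complement. GAGGAA, a form of the ETS site longer than its GGAA core, was found in 27.9% of all windows and occurred in MNDA and in PYHIN1. GGAA alone was not counted, and every stretch above holds GGAA or its reverse complement. These matches describe letters in these windows only.

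The data give, for each gene, a base mean over the libraries of an experiment and a log2 fold change with its standard error for each comparison, and no value per library. Levels per group were therefore estimated from the base mean and the fold changes and carry no error of their own, the spread between the 2 libraries enters only through the standard errors of the fold changes, and the depth of a library is not known from them. Genes with a log2 fold change beyond 1 in size and an adjusted p under 0.01 were called changed, from a 2-sided Wald test and Benjamini-Hochberg adjustment over all genes tested. The targeted gene GSE1 was lower under both hairpins, with log2 fold changes of -0.77 (SE 0.13) for shA1 and -0.79 (SE 0.14) for shB2, short of the fold change threshold, and stood at 0.07 (SE 0.20) under MC2580. KDM1A stayed between -0.05 and 0.03 in all 3 comparisons, within its standard errors. Of the promyelocyte markers, MPO, PRTN3, AZU1, CTSG and CD33 were present and ELANE was near 0, with base means of 1.10 and 3.87. Of the 5 promyelocyte markers tested, PRTN3 and CTSG were called lower under shA1, where 0.786% of all genes were, and PRTN3 and AZU1 under shB2, where 2.91% were. Of the markers of other cells, HBA1 was at 0 in both experiments, CD3D, CD79A and EPCAM were detected in all groups (estimated levels from 98.7 to 1095 normalised counts), and under shB2 CD2 was called higher and CD3D lower. Their part in the values of the PYHIN genes was not tested. In bulk RNA, a changed share of cells with a transcript and a changed amount per cell cannot be told apart.

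**Figure D1:**
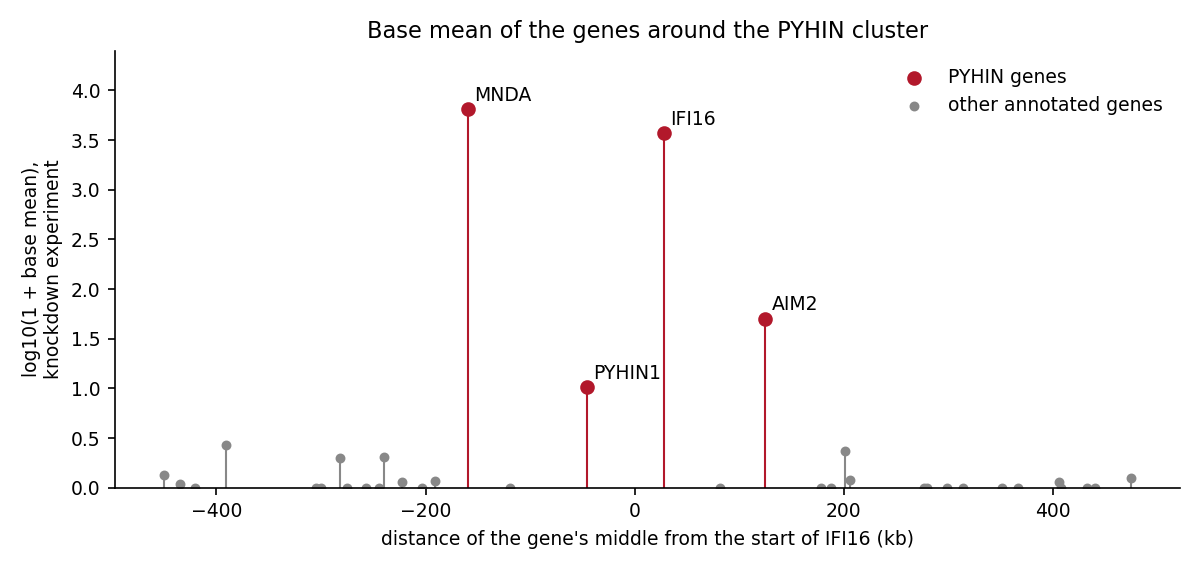
Base mean of the annotated genes reported within 300 kb of the cluster in the knockdown experiment, as log10(1 + base mean) on the vertical axis, against the distance of the gene's middle from the start of IFI16 in kb. MNDA (6446) and IFI16 (3698) stand above all other genes shown, AIM2 (49.6) and PYHIN1 (9.32) are low, and the grey neighbours lie at 1.67 or below.

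MNDA and IFI16 were abundant in NB4 cells, whereas AIM2 and PYHIN1 were scarce. In the knockdown experiment the base mean of MNDA was higher than that of 92.7% of expressed protein-coding genes, that of IFI16 than 85.5%, that of AIM2 than 35.5% and that of PYHIN1 than 26.9%. Per kb of canonical transcript, the estimated level in EV cells was 3802 normalised counts for MNDA, 374 for IFI16, 5.66 for PYHIN1 and 1.94 for AIM2. In DMSO cells the same estimate was 3207 for MNDA, 421 for IFI16, 8.27 for AIM2 and 2.62 for PYHIN1. The order of MNDA before IFI16, and of IFI16 before the other 2 genes, held in all 5 groups, while PYHIN1 stood above AIM2 in EV only. Without errors of the levels this order was not tested. Each experiment was normalised on its own, so that levels are compared within an experiment only.

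IFI16 and AIM2 were upregulated by both hairpins against GSE1, and MNDA and PYHIN1 did not pass the threshold under either. Thus 2 of the 4 genes were called higher in each hairpin comparison, where 4.32% of the 16673 genes tested were called higher under shA1 and 5.58% of 17913 under shB2. None of the 4 genes was called lower, against 0.786% of genes tested under shA1 and 2.91% under shB2. At an unadjusted p under 0.05 stood 3 of the 4 genes for shA1 and 2 for shB2. Both comparisons share the EV libraries. The median log2 fold change over all genes tested was within 0.01 of 0 in each comparison.

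The estimated level of IFI16 was 1079 normalised counts in EV, 5791 in shA1 and 4223 in shB2. Both hairpin groups thus stood well above EV. Its log2 fold change was 2.42 (SE 0.28) under shA1, a 5.37-fold increase with a 95% interval from 3.65 to 7.89 (adjusted p = 1.02e-15, Wald test). Under shB2 it was 1.97 (SE 0.28), a 3.91-fold increase with an interval from 2.66 to 5.75 (adjusted p = 7.25e-11, Wald test). By fold change IFI16 ranked 148 among the 720 genes called higher under shA1 and 336 among the 999 under shB2.

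AIM2, the sensor that nucleates an inflammasome, had the largest fold change of the 4 genes and the lowest EV level. Its estimated level was 2.71 normalised counts in EV, 98.4 in shA1 and 47.8 in shB2. The log2 fold change was 5.18 (SE 0.91) under shA1, a 36.4-fold increase with an interval from 10.5 to 126 (adjusted p = 2.90e-07, Wald test). Under shB2 it was 4.14 (SE 0.92), a 17.7-fold increase with an interval from 5.07 to 61.5 (adjusted p = 4.68e-05, Wald test). These ranks were 18 of 720 and 56 of 999. With so few counts in EV the intervals are wide, and whether an EV library held no AIM2 read could not be read from the tables.

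MNDA, the myeloid nuclear antigen, was high in all knockdown groups, at 6524 normalised counts in EV, 5590 in shA1 and 7225 in shB2. The shA1 group was the lowest and the shB2 group the highest. Its log2 fold change was -0.22 (SE 0.09) under shA1 (adjusted p = 0.0643, Wald test) and 0.15 (SE 0.09) under shB2 (adjusted p = 0.247, Wald test). The intervals, from -0.41 to -0.04 and from -0.04 to 0.33, both stay inside the fold change threshold. With IFI16 higher and MNDA little changed, the per kb ratio of MNDA to IFI16 was 10.2 in EV, 1.62 in shA1 and 2.87 in shB2.

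PYHIN1 had estimated levels of 11.8, 8.41 and 7.73 normalised counts in EV, shA1 and shB2. Its log2 fold changes were -0.49 (SE 1.23; adjusted p = 0.849, Wald test) and -0.61 (SE 1.22; adjusted p = 0.772, Wald test). The intervals ran from -2.89 to 1.91 and from -3.0 to 1.77, so that at this depth a change of several fold in either direction could not have been detected.

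The hairpins were compared directly through the difference of their log2 fold changes, shB2 minus shA1, and the standard errors given are upper limits because EV is shared. No PYHIN gene was called, while over all 16673 genes 0.828% were called with a positive difference and 2.2% with a negative one. At an unadjusted p under 0.05 stood 1 of the 4 genes, MNDA. The difference was -0.46 for IFI16 (SE at most 0.40, adjusted p = 0.671, Wald test) and -1.04 for AIM2 (SE at most 1.30, adjusted p = 0.830, Wald test). Its interval ran from -3.58 to 1.5 for AIM2, so that the hairpins are not shown to act alike on this gene. For MNDA the difference was 0.37 (SE at most 0.13, adjusted p = 0.0536, Wald test), at a size below the fold change threshold. With the shared EV variance taken out, assuming equal error in every group, its adjusted p was 0.000867 by the same Wald test. For PYHIN1 it was -0.12 (SE at most 1.73, adjusted p = 0.997, Wald test).

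Under MC2580, IFI16 was the only PYHIN gene called changed. It rose from an estimated 1213 normalised counts in DMSO to 2484. The log2 fold change was 1.03 (SE 0.19), a 2.05-fold increase with an interval from 1.58 to 2.66 (adjusted p = 3.02e-05, Wald test). This was the smallest fold change among the 109 genes called higher, and its interval on the log2 scale, from 0.66 to 1.41, includes the threshold. Of the 18554 genes tested, 0.587% were called higher and 0.0162% lower, and the 4 genes of the cluster contributed 1 and 0.

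MNDA went from an estimated 5504 normalised counts in DMSO to 8276 in MC2580. Its log2 fold change of 0.59 (SE 0.18), or 1.5-fold with an interval from 1.17 to 1.93, had an unadjusted p of 0.00144 by the Wald test and an adjusted p of 0.105 by the same Wald test, and so did not pass. AIM2 had 11.5 and 28.6 normalised counts in DMSO and MC2580, with a log2 fold change of 1.31 (SE 1.04) and an interval from -0.72 to 3.34. PYHIN1 had 5.48 and 9.72, with a log2 fold change of 0.83 (SE 1.43). For both scarce genes the intervals included no change as well as increases of several fold. The per kb ratio of MNDA to IFI16 was 7.62 in DMSO and 5.60 in MC2580.

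**Figure D2:**
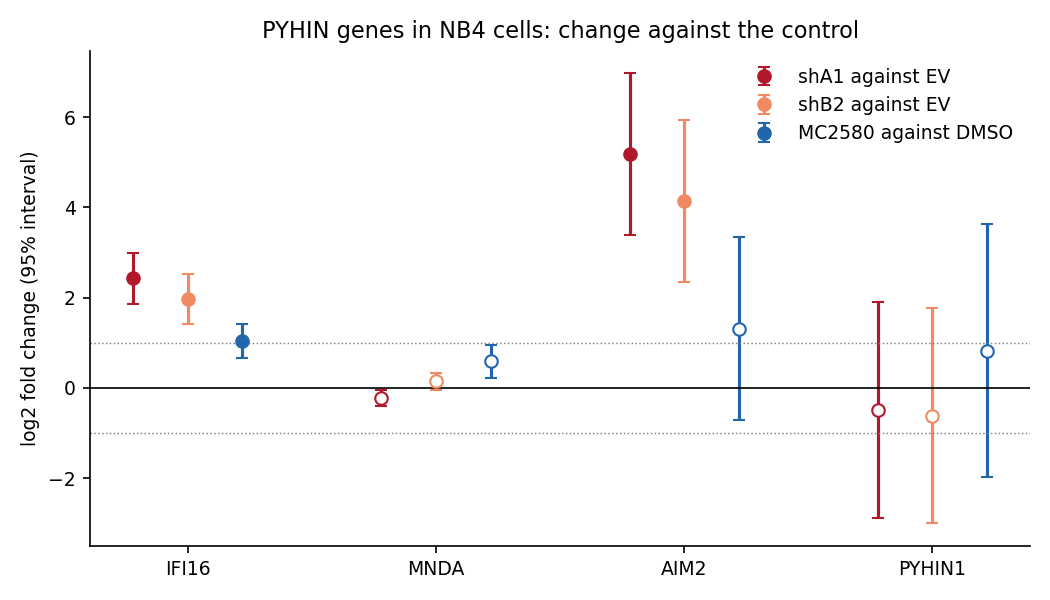
Log2 fold change of each PYHIN gene against its control, with 95% intervals, for shA1 and shB2 against EV and for MC2580 against DMSO. Filled points passed the threshold (dotted lines at -1 and 1 with an adjusted p under 0.01), which holds for IFI16 in all 3 comparisons and for AIM2 under both hairpins. The intervals of MNDA are narrow and close to 0 under the hairpins, and those of PYHIN1 are wide.

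The neighbours of the PYHIN genes that are reported here were nearly silent in NB4 cells. Of 32 such genes annotated in GENCODE within 300 kb of the cluster, 31 were in the tables and 18 were at 0 in both experiments. The 15 protein-coding ones include 12 olfactory receptor genes. These neighbours had base means of at most 2.90, too low to show whether they changed.

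Over the 3 comparisons, the protein-coding genes with log2 fold changes nearest to those of IFI16 among 10916 compared were ARID5B (Euclidean distance 0.26), COL6A2 (0.26) and MTSS1 (0.32). ARID5B had log2 fold changes of 2.37 (SE 0.40), 1.84 (SE 0.41) and 0.82 (SE 0.50), and MTSS1 of 2.51 (SE 0.25), 2.18 (SE 0.25) and 0.81 (SE 0.33). COL6A2 had 2.19 (SE 1.13), 1.89 (SE 1.13) and 1.12 (SE 0.57), and these errors are larger than its distance to IFI16, as are those of ARID5B. Those nearest to MNDA were KIAA1614 (0.08), TGIF2-RAB5IF (0.08) and PYGM (0.12), with values between -0.33 and 0.20 under the hairpins and between 0.54 and 0.63 under MC2580. AIM2 and PYHIN1 had base means below 50 and were not compared in this way.

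The inflammasome list holds the partners of AIM2 and sensors that act in parallel with it. Of 16 genes listed, 4 of 12 tested were called higher under shA1, 7 of 13 under shB2 and 1 of 14 under MC2580, where the shares called higher over all genes tested were 4.32%, 5.58% and 0.587%. None was called lower, against 0.786%, 2.91% and 0.0162% of all genes tested in turn. The median log2 fold change of the list was 0.71, 1.01 and 0.41 in turn. IL1B, the cytokine precursor cleaved by caspase-1, rose from an estimated 31.5 normalised counts in EV to 153 in shA1 and 155 in shB2, with log2 fold changes of 2.28 (SE 0.41) and 2.30 (SE 0.41). The sensor genes NLRP1 (1.40 and 1.64) and NLRP12 (1.65 and 3.35), and CASP8 (1.07 and 1.01), an apoptotic caspase that also joins inflammasomes, were called higher under both hairpins. NLRP3 (1.04), NLRC4 (2.35) and NEK7 (1.33), the kinase that licenses NLRP3, were called under shB2, with 0.53, 0.97 and 0.79 under shA1.

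PYCARD, CASP1 and GSDMD are the genes through which the AIM2 inflammasome acts. PYCARD, the adaptor, had log2 fold changes of 0.27 (SE 0.11), 0.32 (SE 0.11) and 0.32 (SE 0.21) under shA1, shB2 and MC2580. For CASP1 they were 0.63 (SE 0.18), 0.93 (SE 0.18) and 0.29 (SE 0.26), and for GSDMD, the pore-forming gasdermin, 0.58 (SE 0.25), 0.61 (SE 0.25) and 0.56 (SE 0.25). None of these 3 genes was called in any comparison, although CASP1 missed only by its fold change under the hairpins (adjusted p = 0.00372 under shA1 and 3.74e-06 under shB2, Wald test). IL18, with base means of 4.78 and 4.26, was too scarce to judge. Under MC2580, NLRP12 was the gene called, with a log2 fold change of 2.57 (SE 0.56; adjusted p = 0.000981, Wald test). Among the inhibitors that consist of a pyrin or CARD domain alone, and TRIM11, 6 of 7 were in the tables and 2 were tested, CARD16 and TRIM11, and neither was called, with 0, 1 and 0 of the 2 at an unadjusted p under 0.05 in the Wald tests for shA1, shB2 and MC2580.

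Cytosolic DNA sensing, the pathway of IFI16 and STING, showed 1 gene called higher among 17 tested under each hairpin and 0 of 16 under MC2580, where 2 had an unadjusted p under 0.05 in the Wald test. A single gene of 17 is near the shares called higher over all genes, 4.32% under shA1 and 5.58% under shB2. Under MC2580 that share was 0.587%, and 0 of 16 is near it too. None was called lower, against 0.786%, 2.91% and 0.0162% of all genes tested in turn. The list medians were -0.06, -0.15 and 0.05. The gene called was SAMHD1, a deoxynucleotide triphosphohydrolase that restricts retroviruses, with log2 fold changes of 1.45 (SE 0.15) under shA1 and 1.79 (SE 0.15) under shB2, and 0.54 (SE 0.20) under MC2580. CGAS, which makes the cyclic dinucleotide that activates STING, had 0.05 (SE 0.13), 0.71 (SE 0.13) and 0.05 (SE 0.20). STING1 had 0.51 (SE 0.11), -0.15 (SE 0.11) and 0.20 (SE 0.18). Neither passed the fold change threshold.

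Interferon signaling is a known inducer of the family. Of 11 genes tested, 4 were called higher under shA1, 1 under shB2 and 0 under MC2580, where 4 had an unadjusted p under 0.05 in the Wald test. The shares called higher over all genes were 4.32%, 5.58% and 0.587%, and the single gene under shB2 is close to its share. None was called lower, against 0.786%, 2.91% and 0.0162% of all genes tested in turn. The list medians were 0.32, 0.43 and 0.17. Under shA1 the log2 fold changes were 1.66 (SE 0.12) for STAT2 and 2.52 (SE 0.22) for IRF9, whose products act together in the response to type I interferon. Under shB2 they were 0.97 (SE 0.12) for STAT2 and 0.56 (SE 0.23) for IRF9. The regulators IRF1 (1.17) and IRF7 (2.53) were also called under shA1, and IRF7 (1.15) was the gene called under shB2. In the direct comparison of the hairpins 3 of the 11 genes, IRF9, IRF1 and IRF7, were called lower under shB2. Over all 16673 genes tested in that comparison 2.2% were called lower. The differences of the PYHIN genes given above were -0.46 for IFI16, -1.04 for AIM2, -0.12 for PYHIN1 and 0.37 for MNDA. None passed, and the intervals of IFI16, AIM2 and PYHIN1 included no difference. The part of interferon signaling in the PYHIN values was not tested. Under MC2580 the values were 0.63 (SE 0.21) for STAT2 and 0.14 (SE 0.24) for IRF9.

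**Figure D3:**
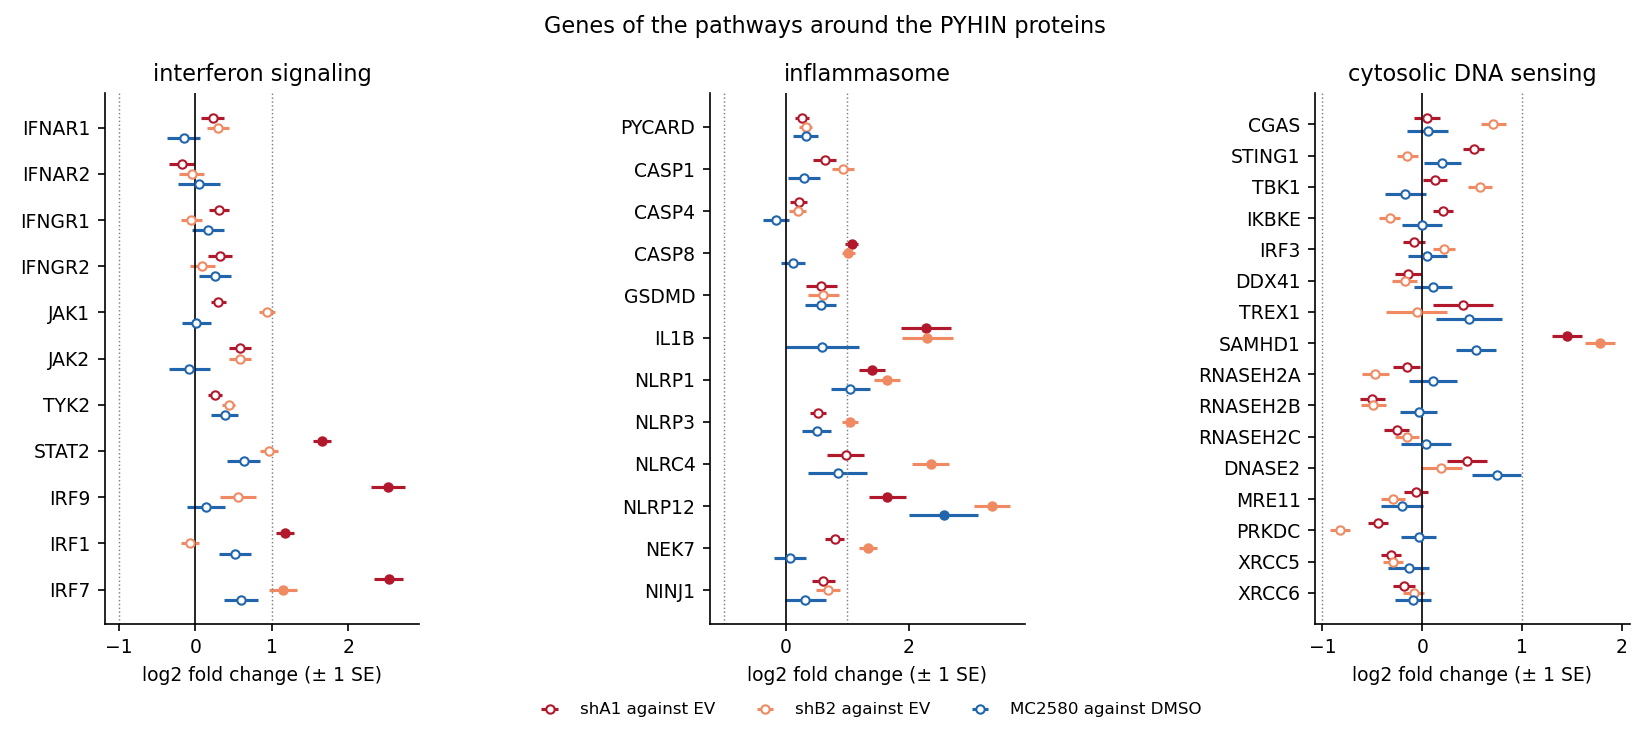
Log2 fold changes with 1 standard error on either side for the genes of the interferon signaling, inflammasome and cytosolic DNA sensing lists that were tested in all 3 comparisons, with filled points for those past the threshold (dotted lines at -1 and 1). IRF9, IRF1 and IRF7 lie further to the right under shA1 than under shB2, NLRP12 lies furthest to the right under shB2, and of the DNA sensing genes SAMHD1 alone is filled.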

How the data were processed

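RNA was measured by mRNA-seq in NB4 cells. Per the labels and the methods, the authors prepared TruSeq v2 libraries, used bcl2fastq 2 and FastQC 0.11.5, aligned them to hg38 in STAR 2.7, obtained gene quantities from RSEM and compared groups with DESeq2. The files hold the results of these comparisons and no value per library, so these columns were used, as no other values could be. Base means, the signal values that the authors deposited, are averages of size-factor-scaled counts over an experiment. The log2 fold changes deposited by the authors come with standard errors, both from their fit. Their deposited p-value columns and Wald score column were not used as results, and the adjusted p-values were only compared with those recomputed here (largest gap 1.75e-14) and used to define the genes tested.

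From the deposited log2 fold changes and standard errors, Wald p-values, Benjamini-Hochberg adjustment, 95% intervals, the difference between the hairpins and the group levels were computed (Python 3.11.15, pandas 2.3.3, scipy 1.17.1). The level in EV was taken as 3 times the base mean over the sum of 1 and both folds, which assumes that folds are ratios of group means. A count-based test, exact intervals of counts and a check of single libraries need values per library and were not made. The hairpin columns were identified from the supplementary gene table, where 1997 of 1997 fold changes were equal. Of 60603 gene identifiers, 60306 matched GENCODE release 44. Promoter windows are from RefSeq (GRCh38.p14). The Wald steps were tested on simulated data.

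The members and lists were chosen with earlier results of these data known. The genes named are the 4 PYHIN genes, GSE1, KDM1A, protein-coding neighbours within 300 kb with a base mean of at least 10, 9 fixed pathway genes and other list genes past the threshold, and the 3 nearest genes for members with a base mean of at least 50. Some genes of the lists and of the region are not reported here and were left out of the counts. The labels call the compound MC280 in titles and MC2580 in the treatment, taken here as MC2580. The methods call the 2 libraries of a group biological replicates, and nothing further on separate cultures was used.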

Additional observations from a re-analysis of the deposited data

Results flagged for a closer look

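Each of these genes differed between the hairpins in the Wald test of shB2 minus shA1, with Benjamini-Hochberg adjustment over all genes tested and both comparisons sharing EV. The difference in log2 fold change was 1.70 (SE at most 0.42, adjusted p = 0.00117) for NLRP12, a sensor gene of the inflammasome list. It was -1.96 (SE at most 0.32, adjusted p = 8.21e-08) for IRF9. It was -1.24 (SE at most 0.17, adjusted p = 1.82e-11) for IRF1 and -1.38 (SE at most 0.26, adjusted p = 6.02e-06) for IRF7. GSE1 mRNA itself differed by -0.02 (SE at most 0.19, adjusted p = 0.996). Protein was not measured here, and by western blot the paper found shB2 to deplete GSE1 more than shA1.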

How the results depend on the processing

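The counts of PYHIN genes called changed in 4 cases among the alternatives tried. With a base mean of at least 50 required, 1 gene was called under shA1 and 1 under shB2, since AIM2, with a base mean of 49.6, was then left out of the test. With a log2 fold change beyond 2 required, 1 was called under shB2, AIM2, and 0 under MC2580. A limit of 0.05 on the adjusted p, dropping the fold change threshold, no filter on low base means, protein-coding genes only and median-centred fold changes gave the same genes in each comparison. The difference between the hairpins called 0 PYHIN genes in all alternatives, also with the shared EV variance taken out. That step assumes equal error in every group, which may not hold for AIM2, scarce in EV. Of 108 values of single genes under alternatives, 106 stayed on their side of the threshold and 2 (IFI16 under shB2 and MC2580 with a log2 fold change beyond 2) did not. None changed sign, but only median-centring alters a fold change, and only slightly, so that this was nearly fixed in advance. The adjusted p of IFI16 under MC2580 ranged from 1.74e-05 to 5.26e-05 over its alternatives, and that of MNDA for the difference between hairpins from 0.000867 to 0.107. No paired analysis was possible because the tables hold no value per library, and for the same reason no library could be left out and no count-based tool run. Low counts limit AIM2 in EV and PYHIN1 in every group.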
